A study of Mus musculus with 12 samples.

Results

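The genes described here build the mitotic spindle, attach chromosomes to it and pull the copies apart. They are 49 mouse genes listed by symbol and matched to rows of the deposited count table, which holds 78298 genes. All 49 were found, and all 49 were among the 22190 genes that passed the filter on low counts. RNA was sequenced from 12 pieces of mouse lung in 4 groups of 3. They were dissected LLC tumours or the normal lung beside them, from mice given HDM, which the series title spells out as house dust mite, or VEH. LLC and VEH are used as the labels give them, and no strain, sex, age, dose or time was stated in the labels. The design text describes the HDM exposure as chronic and the normal tissue as matched. Replicates are numbered in the labels, which do not say whether they came from separate mice, so p-values measure the spread between these libraries.

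A cell entering mitosis switches on cyclin-dependent kinase with B-type cyclins, condenses its chromosomes and assembles a bipolar spindle of microtubules. Kinetochores grip the microtubules, and the spindle assembly checkpoint holds back the anaphase-promoting complex until every chromosome is attached. The complex, with its activator Cdc20, then marks cyclin B and securin for destruction, separase cuts cohesin, and a ring of actin and myosin divides the cell. Many of the genes for these proteins are transcribed mainly in G2 and M phase, so their RNA is widely used as a readout of dividing cells. Most lung cells of a resting adult are not dividing. In bulk tissue such as this, a smaller share of dividing cells and less RNA per dividing cell cannot be told apart.

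Library totals lay between 20608682 and 32765364 counts, the lowest in a VEH tumour and the highest in normal VEH replicate 2. Levels are in CPM: each count was divided by the library total, corrected by edgeR's trimmed mean of M-values (TMM), and set to a common scale. Values in 3 libraries are always given in the order of replicates 1, 2 and 3. The summed level of the alveolar epithelium markers was 17871 to 45261 CPM in the 6 normal libraries and 42.1 to 9119 CPM in the 6 tumours. For endothelium markers it was 1542 to 3144 CPM in normal tissue and 87.2 to 535 CPM in tumours. Both lists were thus lower in every tumour than in every normal library.

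One normal library stood apart from the others for these genes. Normal VEH replicate 2 was the highest of the 6 normal libraries for 49 of 49 mitotic genes, against 20.1% of all tested genes. The start of its library name is shared with tumour HDM replicate 2, and the name of normal HDM replicate 3 is likewise shared with tumour VEH replicate 3, so 2 of the 6 name codes join different treatments. Labels were kept as given. Where they rest on normal VEH replicate 2, medians over the 49 genes or a list and the named mitotic genes' changes are given with and without it. For the other mitosis lists described further below, the counts per list and the named genes' changes are given with it only. The same holds for the medians of genes with and without a promoter motif.

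All 49 mitotic genes were higher in tumours than in normal lung, under VEH and under HDM. Summed over the 49 genes, the level was 235, 773 and 239 CPM in normal VEH tissue, and 229, 200 and 269 CPM in normal HDM tissue. In tumours the sum was 2845, 2693 and 3304 CPM under VEH, and 2677, 2090 and 3975 CPM under HDM. The lowest tumour therefore lay well above the highest normal library. Group means were 416 ± 310 and 233 ± 34.9 CPM in normal VEH and HDM tissue (SD, n = 3), and 2947 ± 318 and 2914 ± 964 CPM in VEH and HDM tumours (SD, n = 3). The 5 normal libraries other than VEH replicate 2 lay at 234 ± 24.8 CPM (SD, n = 5).

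**Figure D1:**
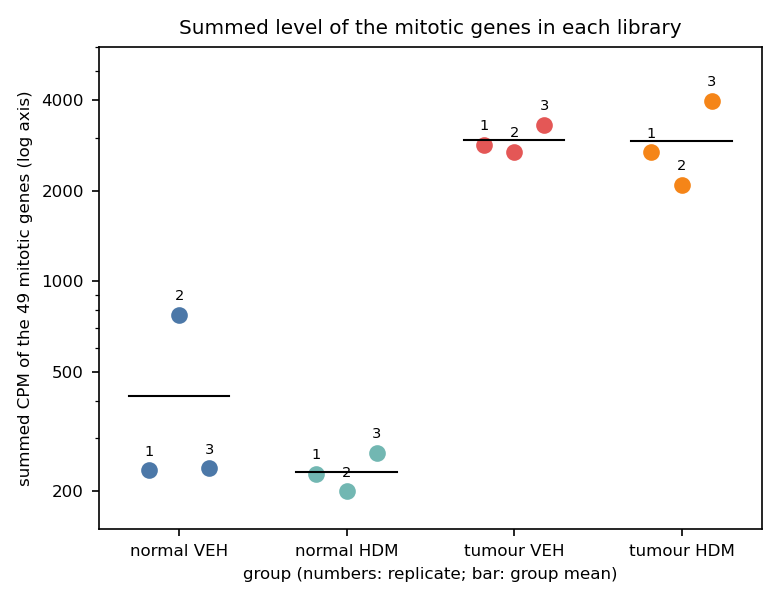
Summed CPM of the 49 mitotic genes (vertical log axis) in each of the 12 libraries, as a point with its replicate number, with a bar at each group mean. Tumours range from 2090 to 3975 CPM, and normal VEH replicate 2, at 773 CPM, is the highest normal library.

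A gene is called changed here at a Benjamini-Hochberg adjusted p below 0.05 over all 22190 genes, by edgeR's quasi-likelihood test. Under VEH, 49 of 49 mitotic genes were called higher in tumours, where 18.2% of all tested genes were. Under HDM, 49 of 49 were called higher, where 23.0% of all tested genes were. For all 49 genes every tumour was above every normal library of either treatment, a separation that 16.4% of all tested genes showed. The median log2 fold change, tumour minus normal, was 2.97 under VEH and 4.02 under HDM, where the median over all tested genes was -0.11 and -0.08. Both comparisons are against different normal groups, and without normal VEH replicate 2 the VEH median was 4.05, with all 49 genes still called. Called lower in tumours were 20.6% of all tested genes under VEH and 28.9% under HDM. Of 6 endothelium markers, all were called lower in tumours in both comparisons, and of 8 alveolar markers, 1 was called lower under VEH and 8 under HDM. Their part in these differences was not tested.

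**Figure D2:**
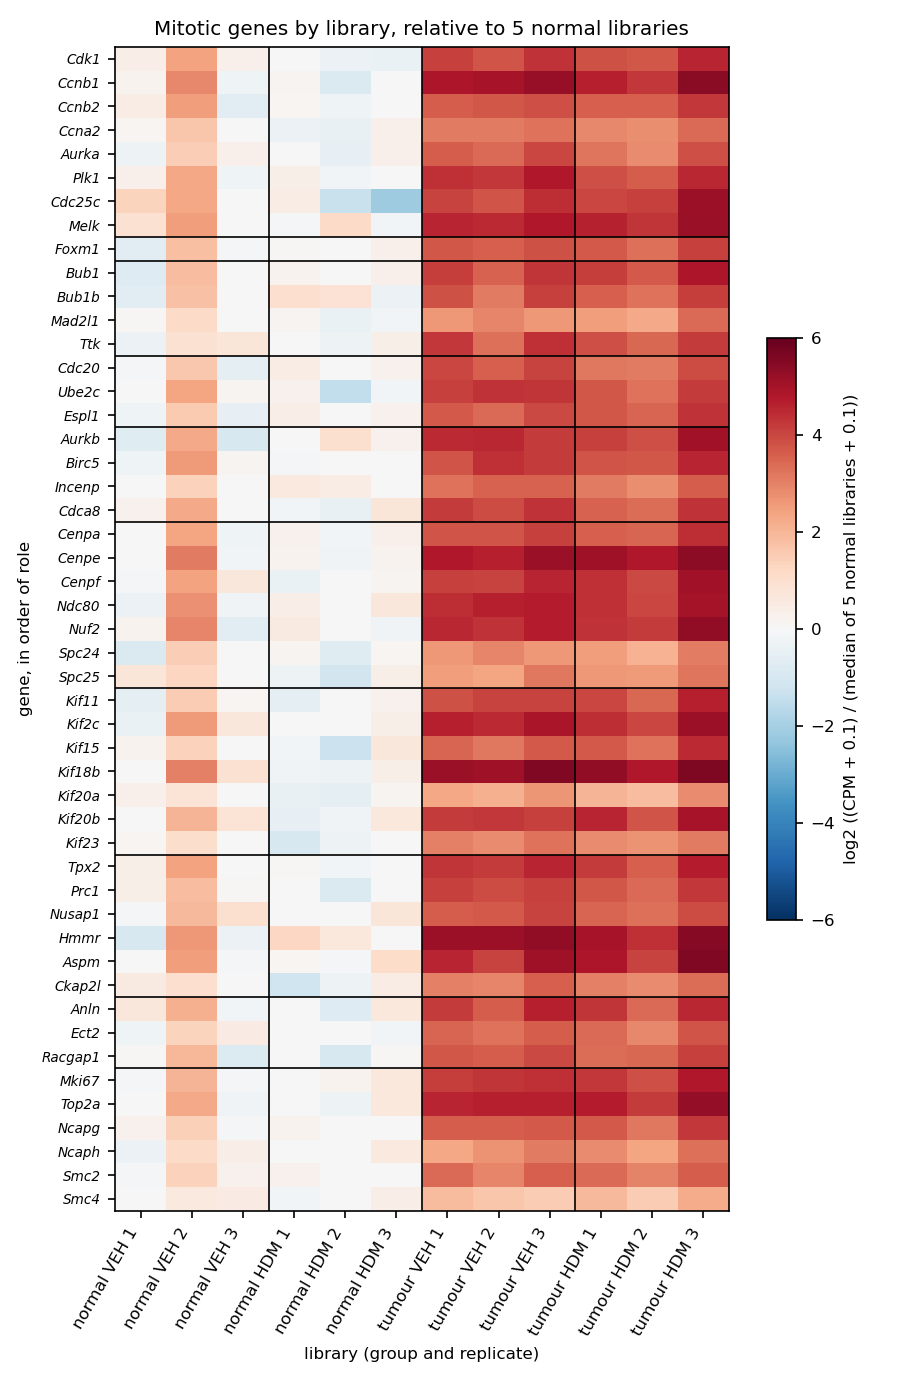
Each mitotic gene (rows, grouped by role) in each library (columns), as the log2 ratio of its CPM to its median in the 5 normal libraries other than VEH replicate 2, with 0.1 CPM added to both. The 6 tumour columns are red in every row, and among normal columns VEH replicate 2 is the reddest.

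The 8 kinases, cyclins and regulators that start mitosis were all called higher in both comparisons, with medians of 2.87 (VEH) and 4.19 (HDM) on the log2 scale. Ccnb2, a B-type cyclin, stood at 4.85, 20.6 and 2.23 CPM in normal VEH tissue and at 3.77, 2.87 and 3.5 CPM in normal HDM tissue. In tumours it was 44.5, 47.5 and 52.1 CPM under VEH, and 43.6, 43.3 and 68.1 CPM under HDM. Only normal VEH replicate 2 came within 3-fold of any tumour for this gene. The log2 fold change of Ccnb2 was 2.37 ± 0.63 (SE, adjusted p = 0.0147, edgeR) under VEH and 3.93 ± 0.68 (SE, adjusted p = 0.00112) under HDM. Cdk1, the kinase that the B-type cyclins activate, changed by 2.71 ± 0.53 and 4.35 ± 0.57, and Plk1, the polo-like kinase of spindle assembly, by 3.28 ± 0.60 and 4.02 ± 0.62 (log2, SE). Without normal VEH replicate 2 the VEH changes were 3.76 (Ccnb2), 3.75 (Cdk1) and 4.49 (Plk1), and the VEH median of the 8 genes was 3.76.

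Cdc25c, a phosphatase that removes inhibitory phosphates from Cdk1, had the largest difference of the 49 genes under HDM. Its counts were 24, 66 and 8 in the normal VEH libraries and 12, 2 and 0 in the normal HDM libraries, so its normal level rests on few reads. Tumours had 168, 158 and 202 counts under VEH, and 168, 218 and 509 under HDM. The tumour groups overlapped, with tumour HDM replicate 3 the highest. The log2 fold change was 5.71 ± 1.03 under HDM (SE, adjusted p = 0.00131) and 2.70 ± 0.86 under VEH (SE, adjusted p = 0.0308), the last being the largest adjusted p of the 49 genes. Leaving out normal VEH replicate 2 gave 3.48 under VEH.

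Foxm1, a transcription factor known to switch on many G2 and M phase genes, rose with them. It was at 1.89, 11.2 and 2.95 CPM in normal VEH tissue and at 3.24, 3.10 and 3.87 CPM in normal HDM tissue. Tumours had 42.8, 38.7 and 44.7 CPM under VEH, and 41.3, 32.0 and 54.3 CPM under HDM. Its log2 fold change was 2.97 ± 0.55 (SE, adjusted p = 0.00267) under VEH and 3.64 ± 0.57 (SE, adjusted p = 0.00062) under HDM. The VEH value was 4.12 when normal VEH replicate 2 was left out.

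The 4 spindle assembly checkpoint genes, which delay anaphase while chromosomes remain unattached, were all called higher in both comparisons. Bub1b, which encodes the checkpoint protein BubR1, was at 2.71, 14.7 and 4.21 CPM in normal VEH tissue and at 8.44, 7.66 and 3.31 CPM in normal HDM tissue. In tumours it was 60.7, 37.1 and 73.8 CPM under VEH, and 51.0, 41.1 and 75.5 CPM under HDM. Normal HDM replicates 1 and 2 were above the other HDM library, and all normal values were below all tumour values. The log2 fold changes were 2.98 ± 0.62 and 3.11 ± 0.63 (SE). Ttk, the kinase that starts checkpoint signalling, had 9, 32 and 21 counts in normal VEH tissue and 12, 10 and 18 in normal HDM tissue. In tumours it had 264, 153 and 269 counts under VEH, and 205, 184 and 360 under HDM. Ttk was among the 3 largest differences under VEH, at 3.68 ± 0.48 (log2, SE, adjusted p = 0.000547), and was 4.05 ± 0.49 under HDM. Mad2l1, which binds and restrains Cdc20, had the smallest change of this group, 2.20 ± 0.37 and 2.95 ± 0.39. With normal VEH replicate 2 left out, the VEH changes were 4.05 (Bub1b), 3.96 (Ttk) and 2.69 (Mad2l1), and Ttk was no longer among the 3 largest.

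Of the genes that act at anaphase onset, Cdc20, the activator of the anaphase-promoting complex, was the most abundant of all 49 in tumours per unit of gene length. Its level was 5.67, 18.3 and 4.04 CPM in normal VEH tissue and 8.11, 5.93 and 7.11 CPM in normal HDM tissue. Tumours had 96.3, 71.2 and 100 CPM under VEH, and 54.0, 51.5 and 90.6 CPM under HDM. The log2 fold change was 3.25 ± 0.51 (SE, adjusted p = 0.00134) under VEH and 3.21 ± 0.51 (SE, adjusted p = 0.00074) under HDM. Ube2c, the ubiquitin-conjugating enzyme that works with the complex, changed by 2.96 ± 0.65 and 4.11 ± 0.69, and Espl1, the protease separase, by 3.13 ± 0.52 and 3.70 ± 0.53. In the VEH comparison without normal VEH replicate 2 they were 4.20 (Cdc20), 4.18 (Ube2c) and 4.14 (Espl1).

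The chromosomal passenger complex corrects faulty attachments and later steers cytokinesis. Its kinase Aurkb was at 1.31, 11 and 1.09 CPM in normal VEH tissue and at 2.21, 4.45 and 2.65 CPM in normal HDM tissue. In tumours Aurkb was 51.7, 53.7 and 42.6 CPM under VEH, and 39.5, 34.0 and 75.2 CPM under HDM. Its log2 fold change was 3.45 ± 0.80 (SE, adjusted p = 0.00785) under VEH and 3.99 ± 0.82 (SE, adjusted p = 0.00281) under HDM. The other 3 subunits on the list, Birc5 (survivin), Incenp and Cdca8 (borealin), were also called higher in both comparisons. Incenp, the scaffold, changed the least of the 4 under HDM, by 2.89 ± 0.39. For Aurkb the VEH change was 5.35 without normal VEH replicate 2.

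All 7 kinetochore and centromere genes were called higher. Cenpa, the histone H3 variant that marks the centromere, was at 3.29, 17.5 and 2.69 CPM in normal VEH tissue and at 4.01, 2.94 and 4.12 CPM in normal HDM tissue. In tumours Cenpa was 46.8, 45.9 and 58.8 CPM under VEH, and 40.7, 38.2 and 72.4 CPM under HDM. The change was 2.68 ± 0.63 (log2, SE, adjusted p = 0.00836) under VEH and 3.77 ± 0.66 (adjusted p = 0.00124) under HDM. Cenpe, a kinetochore motor, went from 1.40, 12.8 and 1.26 CPM in normal VEH tissue to 42.4, 38.4 and 53.4 CPM in VEH tumours. Under HDM it went from 1.64, 1.21 and 1.66 CPM to 51.6, 41.9 and 61.7 CPM, one of the 3 largest differences there (5.10 ± 0.84, log2, SE). Its VEH change was 3.11 ± 0.75 with all libraries and 5.07 without normal VEH replicate 2, and that of Cenpa was 4.08 without it.

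The Ndc80 complex is the microtubule-binding part of the kinetochore, and its 4 subunits are on the list. Ndc80 and Nuf2, its outer pair, changed by 3.18 ± 0.76 and 2.93 ± 0.79 under VEH, and by 4.24 ± 0.80 and 4.66 ± 0.87 under HDM. Spc24 and Spc25, the inner pair, changed by 2.21 ± 0.54 and 1.97 ± 0.45 under VEH, and by 2.75 ± 0.55 and 3.10 ± 0.47 under HDM. Without normal VEH replicate 2 the VEH values were 5.06 (Ndc80), 4.85 (Nuf2), 3.13 (Spc24) and 2.34 (Spc25). The difference between the pairs was not tested. Spc25 was at 4.11, 6.17 and 2.44 CPM in normal VEH tissue, at 1.93, 1.09 and 3.17 CPM in normal HDM tissue, at 14.3, 12.9 and 22.6 CPM in VEH tumours and at 15.4, 14.8 and 23.2 CPM in HDM tumours. It shares exon sequence with Nostrin, a gene on the opposite strand that had 2.09 times as many counts and fell in tumours (log2 fold change -2.46 under VEH and -3.41 under HDM). How the counting treated strand is not given in the sources used here, so the normal level of Spc25 is uncertain.

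Motor proteins of the spindle held some of the largest and some of the smallest changes. Kif18b, which controls the length of astral microtubules, had 12, 148 and 24 counts in normal VEH tissue and 10, 10 and 18 in normal HDM tissue. In tumours it had 506, 535 and 594 counts under VEH, and 576, 480 and 942 under HDM. Its change was 3.46 ± 0.68 (log2, SE, adjusted p = 0.0034) under VEH and 5.55 ± 0.76 (adjusted p = 0.000337) under HDM, among the 3 largest in both. Kif20a, a motor of the central spindle, was among the 3 smallest in both, at 1.95 ± 0.32 and 2.56 ± 0.33. Its levels were 18.2, 26.4 and 14.7 CPM in normal VEH tissue, 10.8, 9.85 and 16.6 CPM in normal HDM tissue, 73.0, 64.3 and 91.7 CPM in VEH tumours and 60.9, 53.8 and 106 CPM in HDM tumours. Kif20a shares 2748 exon bases with Cdc23 on the opposite strand, which had 1.38 times as many counts, so its normal level is uncertain too. Kif11, the motor that pushes the spindle poles apart, changed by 3.36 ± 0.52 and 4.20 ± 0.55. If normal VEH replicate 2 was left out, the VEH changes were 4.93 (Kif18b), 2.22 (Kif20a) and 4.21 (Kif11), and Kif18b was no longer among the 3 largest under VEH.

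Among the microtubule-associated proteins, Tpx2, which recruits and activates Aurora A at the spindle, was at 6.00, 25.8 and 4.72 CPM in normal VEH tissue and at 4.92, 4.23 and 4.71 CPM in normal HDM tissue. Tumours had 93.1, 87.8 and 113 CPM under VEH, and 86.9, 57.0 and 125 CPM under HDM. The log2 fold change of Tpx2 was 3.01 ± 0.58 (SE, adjusted p = 0.00336) and 4.28 ± 0.62 (SE, adjusted p = 0.000456). Hmmr, a hyaluronan receptor that also binds spindle microtubules, had the largest VEH difference of the 49 genes, 3.96 ± 0.85 (log2, SE, adjusted p = 0.00554). It had 10, 184 and 16 counts in normal VEH tissue and 820, 936 and 846 in VEH tumours. Under HDM the counts were 54, 38 and 24 in normal tissue and 734, 601 and 1432 in tumours, a change of 4.38 ± 0.87. Hmmr remained the largest VEH change without normal VEH replicate 2, at 6.05, and Tpx2 was then 4.20.

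For cytokinesis, Racgap1, a subunit of the centralspindlin complex at the midzone, was at 9.16, 34.7 and 4.88 CPM in normal VEH tissue and at 8.68, 4.42 and 9.06 CPM in normal HDM tissue. In tumours it was 115, 108 and 137 CPM under VEH, and 88.5, 96.2 and 153 CPM under HDM. The log2 fold change was 2.88 ± 0.62 (SE, adjusted p = 0.00572) and 3.93 ± 0.65 (SE, adjusted p = 0.000936). It was 4.10 under VEH without normal VEH replicate 2. Anln, the actin-binding anillin, and Ect2, the exchange factor that activates RhoA at the cleavage site, were also called higher in both.

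Top2a, the topoisomerase that untangles sister chromatids, was at 10.6, 52.2 and 9.09 CPM in normal VEH tissue and at 10.8, 8.61 and 16.7 CPM in normal HDM tissue. In tumours it was 252, 270 and 269 CPM under VEH, and 276, 197 and 418 CPM under HDM. The change was 3.46 ± 0.64 (log2, SE, adjusted p = 0.00286) and 4.62 ± 0.68 (adjusted p = 0.000491). Condensins fold the mitotic chromosomes. Smc4, shared by condensins I and II, changed the least of the 49 genes in both comparisons, by 1.34 ± 0.22 (adjusted p = 0.00158) and 1.83 ± 0.23 (adjusted p = 0.000203). It was already at 31.7, 47.9 and 44.5 CPM in normal VEH tissue and at 28.6, 31.8 and 41.4 CPM in normal HDM tissue, against 119, 102 and 92.1 CPM in VEH tumours and 123, 91.3 and 147 CPM in HDM tumours. Its partner Smc2, which joins every condensin with Smc4, changed by 2.67 ± 0.35 and 3.29 ± 0.36. Ncaph, the kleisin subunit of condensin I, was at 4.02, 11.5 and 6.90 CPM in normal VEH tissue, at 5.04, 5.13 and 7.70 CPM in normal HDM tissue, at 26.4, 33.4 and 45.1 CPM in VEH tumours and at 36.7, 26.7 and 51.8 CPM in HDM tumours. Its change under HDM, 2.69 ± 0.40, was the third smallest of the set. Leaving out normal VEH replicate 2 gave VEH changes of 4.74 (Top2a), 1.46 (Smc4) and 3.23 (Smc2), with Smc4 still the smallest of the 49.

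**Figure D3:**
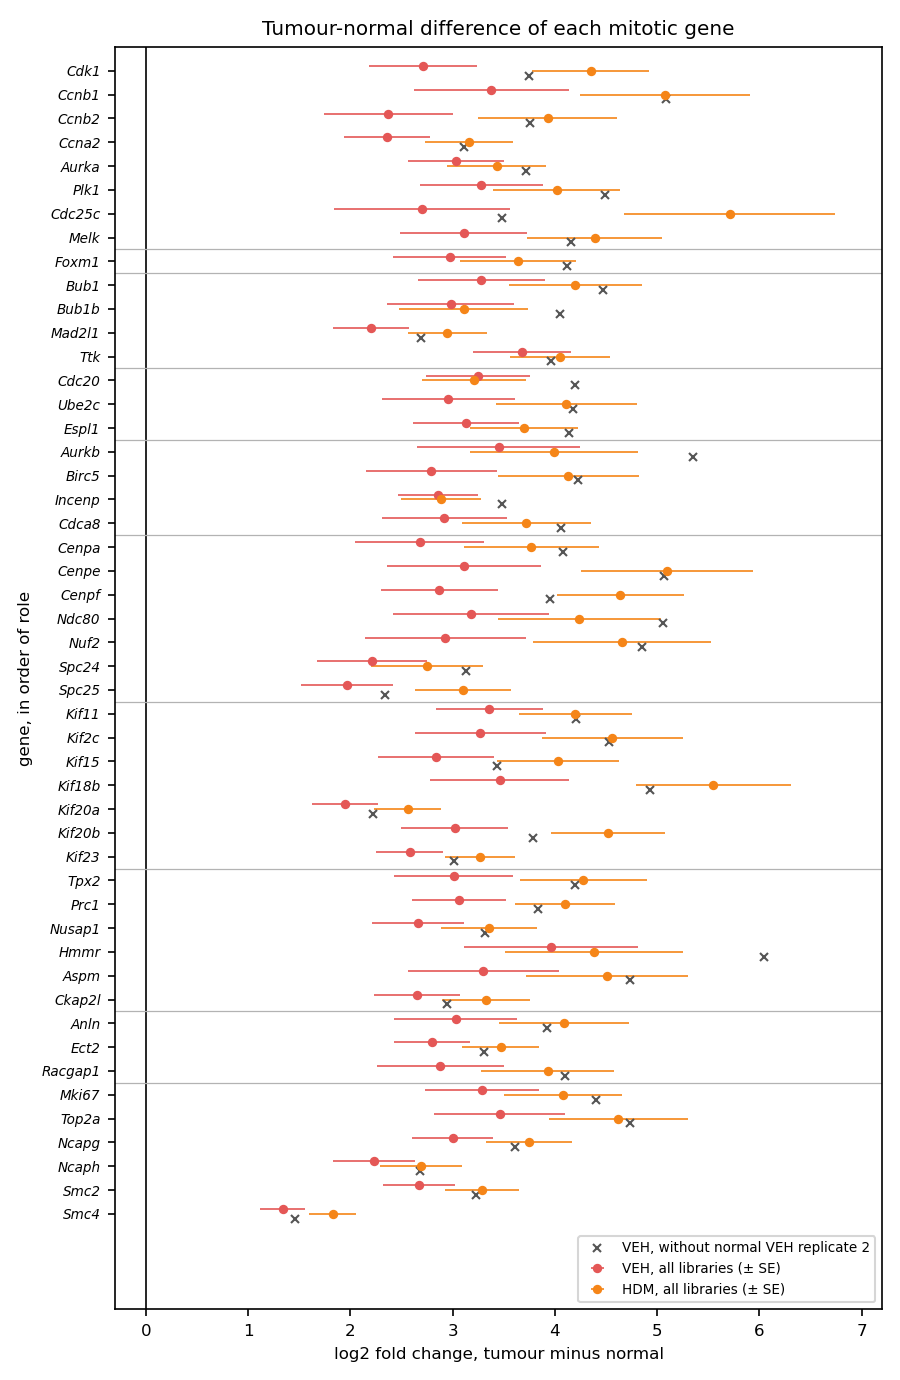
Log2 fold change, tumour minus normal, of each mitotic gene under VEH (red) and HDM (orange), with SE, and under VEH without normal VEH replicate 2 (crosses). All points are above 0, from 1.34 (Smc4, VEH) upwards, and most crosses lie near the HDM points.

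Per unit of gene length (FPKM, CPM per kilobase of the deposited gene length), the order of levels differed between tumour and normal tissue. In the 6 tumours Cdc20 was first at 41.4 ± 11.5 FPKM (SD, n = 6), followed by Ccnb2 at 32.6 ± 6.21, Top2a at 31.1 ± 8.14, Ube2c at 31.0 ± 7.81 and Plk1 at 28.9 ± 8.39 FPKM. Each of these 5 differed from the next in the order by less than the larger of their SDs. Kif15, a motor that helps hold the spindle bipolar, was last at 1.58 ± 0.586 FPKM, below Cdc25c at 1.77 ± 0.71 and Ttk at 1.86 ± 0.566. In the 5 normal libraries other than VEH replicate 2, Smc4 was first at 6.83 ± 1.33 FPKM (SD, n = 5), ahead of Cdc20 at 3.30 ± 0.824 and Kif20a at 3.23 ± 0.829. Smc4 was 7th in tumours, at 21.6 ± 4.17 FPKM. Of the 49 genes, 20 share exon bases with a tested gene on the opposite strand. For 5 of them (Aurka, Cdc20, Cdk1, Kif20a and Spc25) such a gene had more counts, which makes their normal level uncertain. For Cdc20 and Cdk1 the shared stretch is only 53 and 49 bases. Ncapg shares 2118 bases with Lcorl, which had 0.857 times as many counts, so its level is uncertain as well.

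Because the 49 genes moved together, their promoters were read for short motifs known from cell cycle genes. The cell cycle genes homology region (CHR, letters TTTGAA) is known to be bound by the MuvB core of the DREAM and Myb-MuvB complexes, and the CCAAT box by NF-Y. Each promoter was taken from 250 bases before to 50 bases from the GENCODE M39 canonical start onwards on the GRCm39 build, 300 bases in all, and searched on both strands, with motifs counted separately where they overlap. TTTGAA was in 27 of 49 promoters (55.1%), against 17.1% of 21723 promoters of protein-coding genes. CCAAT was in 34 of 49 (69.4%), against 40.0%, and both were in 22 of 49 (44.9%), against 7.44%. The variant TTTAAA was in 15 of 49 (30.6%), against 13.1%. Among promoters of 15074 tested protein-coding genes the shares were 14.2% (TTTGAA), 38.8% (CCAAT), 5.82% (both) and 11.5% (TTTAAA). Among the 125 genes of other mitosis lists, described below, they were 25.6%, 44%, 14.4% and 13.6%. These differences were not tested.

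The position of TTTGAA was looked at after the matches had been seen. It began at or after the start site in 21 of the 49 promoters (42.9%), against 1.85% of all and 9.6% of the other mitosis lists. The 6 sequences printed next are 150 bases (120 before the start and 30 from it onwards) of the promoters of Top2a, Cdk1, Ube2c, Prc1 and Kif18b, which hold TTTGAA just past the start, and of Foxm1, which has none of the 3 motifs in its 300 bases. Capitals mark matches to the 3 motifs, written as they read on the printed strand, and each line reads 5′ to 3′ along the gene.
Top2a: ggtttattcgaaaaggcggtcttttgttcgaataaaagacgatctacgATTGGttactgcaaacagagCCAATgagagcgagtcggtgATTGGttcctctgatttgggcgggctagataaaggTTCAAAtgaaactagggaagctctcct
Cdk1: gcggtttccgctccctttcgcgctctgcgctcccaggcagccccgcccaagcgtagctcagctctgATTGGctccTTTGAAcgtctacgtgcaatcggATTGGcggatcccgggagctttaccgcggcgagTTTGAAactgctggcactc
Ube2c: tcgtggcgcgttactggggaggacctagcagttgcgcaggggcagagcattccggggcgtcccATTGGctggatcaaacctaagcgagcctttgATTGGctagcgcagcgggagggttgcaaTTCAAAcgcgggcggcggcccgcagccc
Prc1: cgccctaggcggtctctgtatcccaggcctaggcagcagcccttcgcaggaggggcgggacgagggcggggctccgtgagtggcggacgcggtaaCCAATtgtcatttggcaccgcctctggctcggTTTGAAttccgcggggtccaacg
Kif18b: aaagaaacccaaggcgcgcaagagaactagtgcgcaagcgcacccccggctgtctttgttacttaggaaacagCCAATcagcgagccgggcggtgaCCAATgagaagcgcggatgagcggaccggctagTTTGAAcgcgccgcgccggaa
Foxm1: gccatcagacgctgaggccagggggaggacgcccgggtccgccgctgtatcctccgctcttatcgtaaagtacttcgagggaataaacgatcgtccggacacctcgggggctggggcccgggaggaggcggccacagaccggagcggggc

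The windows lie at chr11:98915012-98915161 (minus strand, Top2a), chr10:69188739-69188888 (minus, Cdk1), chr2:164611698-164611847 (plus, Ube2c), chr7:79944067-79944216 (plus, Prc1), chr11:102815927-102816076 (minus, Kif18b) and chr6:128339398-128339547 (plus, Foxm1). Counting the start site as base 1, TTTGAA begins at base 4 in Top2a, 12 in Cdk1, 3 in Ube2c, 8 in Prc1 and 10 in Kif18b. A match describes the letters and does not show that a factor binds. With all libraries included, genes with and without TTTGAA had median log2 fold changes of 2.96 (n = 27) and 2.98 (n = 22) under VEH, and of 4.03 and 3.76 under HDM. These differences were not tested.

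Other genes of mitosis were read from 10 lists of 125 genes written from general knowledge, all of them tested. Under VEH 90 of the 125 were called higher and 5 lower in tumours, and under HDM 101 were called higher and 3 lower, with medians of 1.16 and 1.51 on the log2 scale. Without normal VEH replicate 2 the VEH comparison called 95 of them in either direction, with a median of 1.42. Of all tested genes, 18.2% were called higher and 20.6% lower under VEH, and 23.0% higher and 28.9% lower under HDM. The lists thus held few genes called lower. In the list of other kinetochore and checkpoint genes, 16 of 18 were called higher in both comparisons (medians 2.45 and 3.55), led by Sgo1, the shugoshin that guards centromeric cohesin (3.60 and 4.64), and Kntc1, a subunit of the complex that brings dynein to kinetochores (3.25 and 4.41). All 5 other mitotic kinesins were called higher in both (medians 3.01 and 3.95), among them Kif14 (3.12 and 3.95) and Kif22 (3.13 and 3.95). Without normal VEH replicate 2 the VEH medians were 3.20 (other kinetochore and checkpoint genes) and 4.03 (other kinesins).

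Beside the next counts, 18.2% (VEH) and 23.0% (HDM) of all tested genes were called higher. Of 19 genes of the constitutive centromere network and CENP-A loading, 15 under VEH and 17 under HDM were called higher (medians 2.0 and 2.66). Their VEH median was 2.08 without normal VEH replicate 2. Cenpi, a subunit of the network, changed by 2.67 and 3.88. Of 12 other spindle and cytokinesis genes, 11 and 10 were called higher, led by Ckap2 (3.25 and 4.86) and Gtse1 (3.42 and 4.46). Of 15 other mitotic kinases, phosphatases and regulators, 12 and 13 were called higher, with the kinase Pbk at 2.70 and 4.52 and the cyclin Ccnf at 2.86 and 3.93. All 4 other condensin subunits were called higher in both, with Ncapd2 at 2.72 and 3.36 and Ncapg2 at 2.57 and 3.39.

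Several lists hold machines that also work outside mitosis, and no difference between lists was tested. Again, 18.2% of all tested genes were called higher under VEH and 23.0% under HDM. Of 14 core subunits of the anaphase-promoting complex, 8 were called higher in each comparison, with medians of 0.49 and 0.48 and largest changes in Cdc16 (1.23 and 0.98) and Anapc15 (0.99 and 1.35). The median over 13 genes of cohesin and its regulators was 0.48 under VEH and 0.61 under HDM, with 6 and 10 called higher. The largest of these were Cdca5 (sororin), at 3.48 and 4.01, and Esco2, an acetyltransferase of cohesin, at 2.51 and 3.53. Augmin and the gamma-tubulin ring complex, which nucleate microtubules, had medians of 0.53 and 0.84, with 7 and 11 of 14 called higher, led by Haus6 (1.47 and 2.24) and Haus4 (1.08 and 1.68). Without normal VEH replicate 2 the VEH medians were 0.50 (anaphase-promoting complex), 0.44 (cohesin) and 0.55 (augmin and ring complex). In the DREAM and MuvB list, 6 and 7 of 11 were called higher (medians 0.74 and 0.63). Its VEH median was 0.78 without normal VEH replicate 2. Mybl2, the Myb protein that joins MuvB in dividing cells, changed by 3.28 and 4.74, and Tfdp1, the partner of E2F proteins, by 1.62 and 2.66.

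**Figure D4:**
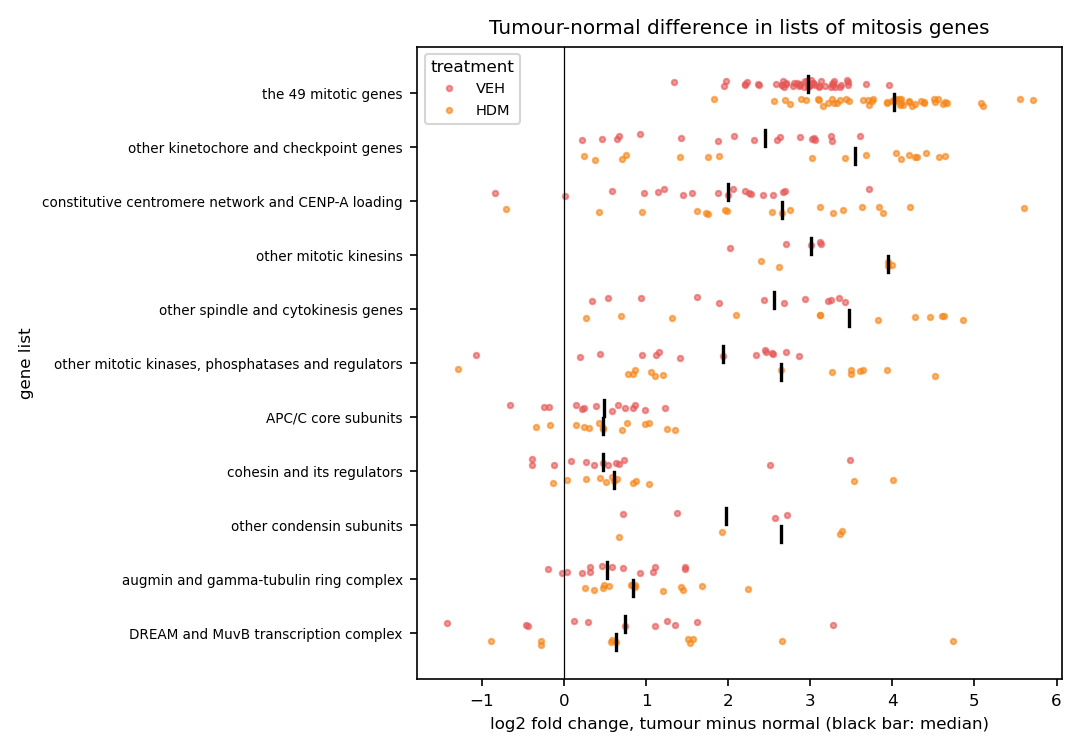
Log2 fold change, tumour minus normal, of the 49 mitotic genes and of each gene in 10 other mitosis lists, under VEH (red) and HDM (orange), with a black bar at each median. The lists of kinesins, kinetochore and spindle genes lie to the right with the 49 genes, while the anaphase-promoting complex, cohesin, augmin and DREAM lists have medians between 0.48 and 0.84.

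The genes called lower in tumours included Pttg1, securin, the inhibitor of separase. It was at 70.3, 34.2 and 51.7 CPM in normal VEH tissue, at 38.7, 41.6 and 50.0 CPM in normal HDM tissue, at 18.9, 36.7 and 18.9 CPM in VEH tumours and at 15.4, 17.9 and 19.8 CPM in HDM tumours. The VEH groups overlapped and the HDM groups did not. Its log2 fold change was -1.07 ± 0.30 (SE, adjusted p = 0.0191) under VEH and -1.29 ± 0.31 (SE, adjusted p = 0.00539) under HDM, opposite to that of separase, Espl1. Tumour VEH replicate 2, the highest tumour for Pttg1, also had the highest summed airway epithelium markers of the tumours, 19284 CPM against 3.52 to 6051 CPM in the other 5. In normal tissue the airway sum was highest in VEH replicate 1 (112731 CPM), which was highest for Pttg1. The part of airway cells in the Pttg1 values was not tested.

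Lin52, a MuvB subunit (-1.43 and -0.89), and Cenpx, of the constitutive centromere network (-0.84 and -0.71), were called lower in both comparisons. Anapc13, of the anaphase-promoting complex (-0.66, adjusted p = 0.0218), and Rbl2, the pocket protein p130 of DREAM (-0.47, adjusted p = 0.00917), were called lower under VEH and not under HDM, where their adjusted p was 0.166 and 0.0547. All 5 of these genes share exon bases with a gene on the opposite strand. For Lin52 that gene, Aldh6a1, had 20857 counts against 5169 and a log2 fold change of -2.52 and -2.47. For Pttg1 it was Slu7, with 15182 counts against 10828 and a log2 fold change of 0.07 and -0.04. Rbl2 shares 4194 bases with Aktip, which had 16732 counts against 17726 and changed by -1.36 and -0.97. Anapc13 overlaps Cep63 (8820 counts against 8764, -0.64 and -0.57), and Cenpx overlaps Aspscr1 (16587 against 9648, -0.03 and 0.23). The part of these overlaps in the calls was not tested.

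No difference between HDM and VEH tumours was detected in any of the 49 genes. None of the 49 was called, where 0.0946% of all tested genes (21 genes) were, and none had an unadjusted p below 0.05, where 3698 of all tested genes did. DESeq2's Wald test called none of the 49 either, and called 1311 of the 22190 genes. The median log2 fold change, HDM minus VEH, was 0.00 (all genes -0.03), from -0.46 (Ube2c) to 0.43 (Kif15), with 23 genes above 0 and 26 below. This balance depended on the libraries and the model. Without the 4 libraries whose name codes join different treatments, the median was 0.27, with 43 genes above 0. With a block for the name code it was -1.02, with 46 genes below 0 and 7 at an unadjusted p below 0.05. None of the 49 was called in either, and neither was any other tested gene. The block fit can compare HDM with VEH tumours only by way of the codes that join different treatments. These include the code of normal VEH replicate 2. For none of the 49 did the HDM tumours lie wholly above or wholly below the VEH tumours, where 11.3% of all tested genes lay above and 10.7% below. The smallest adjusted p was 0.663 (Cdc20).

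The 95% intervals of these differences all included 0, and their lower and upper bounds had medians of -1.15 and 1.17 on the log2 scale. The narrowest was that of Smc4, from -0.28 to 0.69 around 0.21 ± 0.22 (SE), and Cdc25c reached up to 2.18. For Cdc20 the difference was -0.45 ± 0.47 (SE) with an interval from -1.49 to 0.59. Kif15 was at 15.2, 12.1 and 17.1 CPM in VEH tumours and at 17.2, 12.9 and 29.9 CPM in HDM tumours, a difference of 0.43 ± 0.52 (interval -0.72 to 1.59). Its levels in normal lung were far lower, 1.48, 3.40 and 1.26 CPM with VEH and 1.11, 0.453 and 2.10 CPM with HDM.

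The HDM tumours differed among themselves in a common direction. Tumour HDM replicate 3 was the highest of the 3 for 49 of 49 genes (33.8% of all tested genes), and replicate 2 the lowest for 47 (30.7%). Replicate 3 exceeded replicate 2 by 1.34-fold (Kif23) to 2.84-fold (Aspm, a spindle pole protein), with a median of 1.92, where the median over all tested genes was 0.971. The coefficient of variation had a median of 34.0% over the 3 HDM tumours and of 14.2% over the 3 VEH tumours. This difference in spread was not tested. Over all 6 tumours, HDM replicate 3 was the highest for 39 of the 49 genes (18.9% of all tested genes) and VEH replicate 3 for 9 (10.3%). HDM replicate 2 was the lowest for 37 (12.5%) and VEH replicate 2 for 10 (25.2%).

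Summed markers of other cells also differed between these tumours, and did not follow the order of the mitotic genes throughout. Tumour HDM replicate 3 had a summed alveolar level of 42.1 CPM, against 2454 to 9119 CPM in the other tumours. It had the lowest T cell sum, 1.55 against 12.6 to 56.1 CPM, the lowest airway sum, 3.52 CPM, and the highest macrophage sum, 713 against 313 to 552 CPM. Tumour HDM replicate 2 was the lowest for 37 of the 49 mitotic genes and for 12.5% of all tested genes. It had an alveolar sum of 2640 CPM, close to the 2553 CPM of HDM replicate 1, and a macrophage sum of 552 CPM. Tumour VEH replicate 2 was the lowest tumour for 10 of the 49 mitotic genes and for 25.2% of all tested genes. It had the highest alveolar and airway sums. The part of these cells in the spread was not tested.

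In normal lung, none of the 49 genes was called between HDM and VEH, where 0% of all tested genes were. DESeq2's Wald test also called none of the 49, and 43 of the 22190 genes. By edgeR's test 16 of the 49 had an unadjusted p below 0.05 (1230 of all tested genes). The log2 fold change, HDM minus VEH, was below 0 for 49 of 49 genes, with a median of -0.92 (all genes -0.01). That pattern rests on normal VEH replicate 2. Without it the median was -0.04, with 28 genes below 0 and 21 above, and 2 had an unadjusted p below 0.05. Cdk1 had the smallest p of the 49, at 5.75, 23.2 and 5.39 CPM in normal VEH tissue and 4.34, 3.40 and 3.28 CPM in normal HDM tissue. Its difference was -1.64 ± 0.52 (SE, adjusted p = 0.866, edgeR) with all libraries and -0.60 (adjusted p = 0.552) without that one. In tumours Cdk1 was at 75.2, 60.2 and 89.6 CPM under VEH, and at 63.0, 57.9 and 104 CPM under HDM.

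Kif18b and Prc1, a crosslinker of antiparallel microtubules, had the next smallest p in this comparison. For Prc1 the levels were 6.61, 18.6 and 5.30 CPM in normal VEH tissue and 5.12, 2.72 and 5.05 CPM in normal HDM tissue, and the difference was -1.25 ± 0.45 (SE, adjusted p = 0.887), or -0.47 without normal VEH replicate 2. In tumours Prc1 was at 88.7, 77.7 and 89.6 CPM under VEH, and at 68.9, 54.1 and 97.3 CPM under HDM. Kif18b differed by -2.09 ± 0.69 (SE, adjusted p = 0.883), or by -0.62 without it. Cdk1 and Prc1 were the 2 genes of the 49 whose normal HDM libraries were all below the normal VEH libraries, which 5.85% of all tested genes showed. Outside normal VEH replicate 2, Cdk1 ran from 3.28 to 5.75 CPM and Prc1 from 2.72 to 6.61 CPM in normal tissue.

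**Figure D5:**
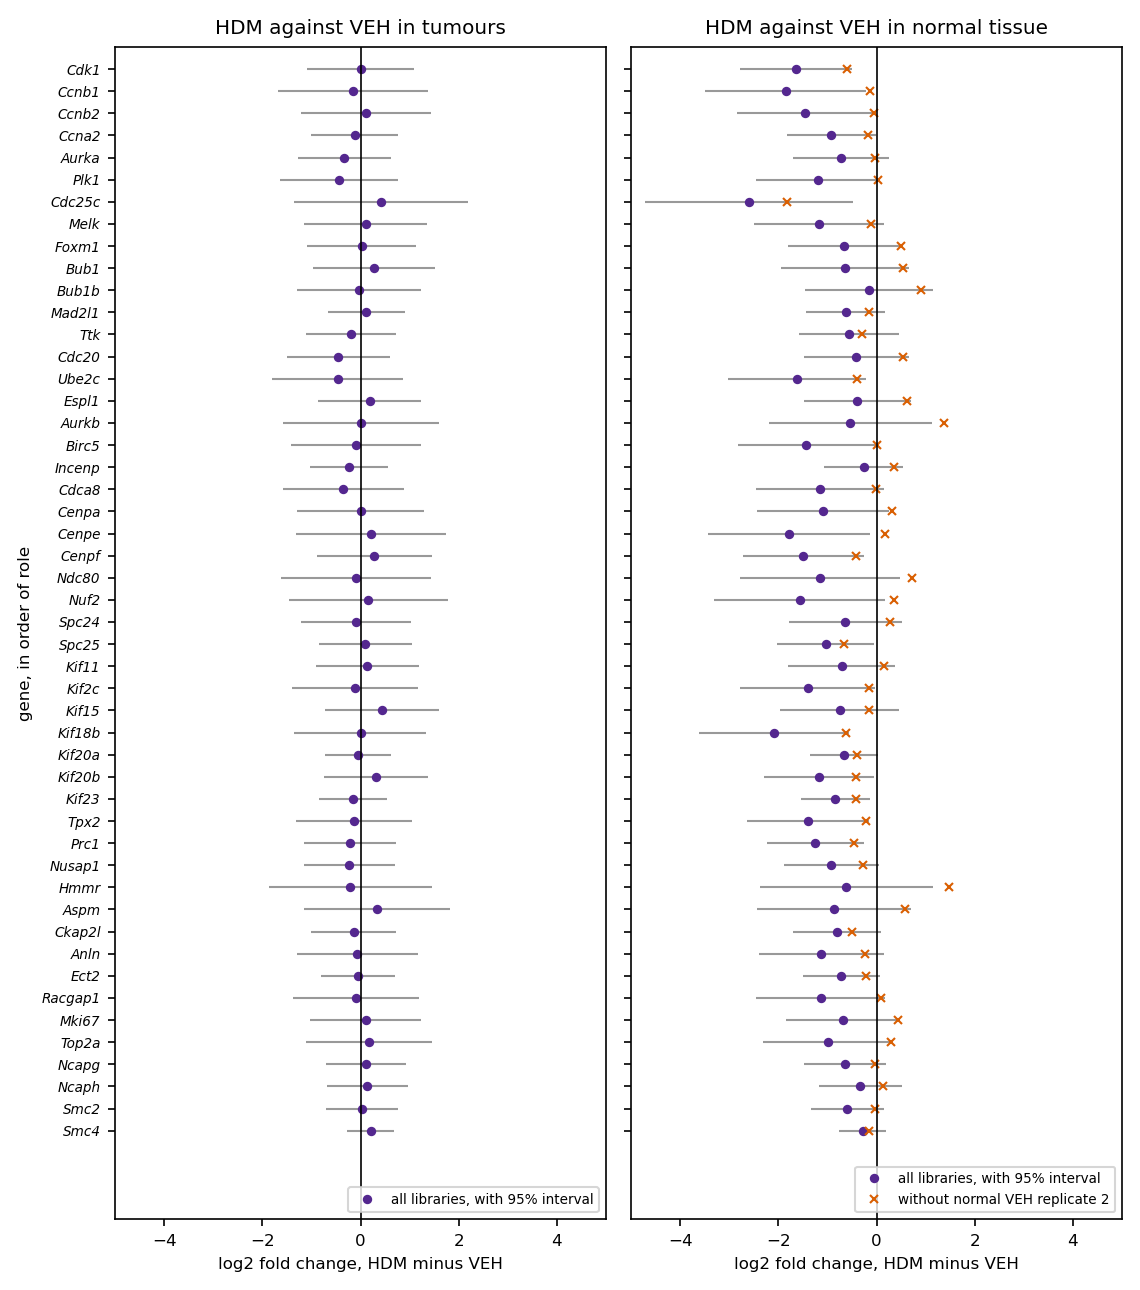
Log2 fold change, HDM minus VEH, of each mitotic gene in tumours (left) and normal tissue (right), with its 95% interval, and in normal tissue without normal VEH replicate 2 (crosses). In tumours all intervals cross 0, and in normal tissue the points are all below 0 with every library and on both sides of 0 without that one.

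Normal VEH replicate 2 exceeded the median of the other 5 normal libraries by 1.5-fold (Smc4) to 9.45-fold (Kif18b), with a median of 4.00 over the 49 genes and of 1.00 over all tested genes. Its levels were 10.4% (Ttk) to 44.9% (Spc24) of the tumour median, with a median of 24.9%. Several genes that were scarce in the other normal libraries and abundant in tumours were also raised there. These were chosen after their values had been seen. Dkk2, a secreted Wnt regulator, was at 104 CPM in this library, 1.13 to 8.85 CPM in the other 5 normal libraries and 296 to 891 CPM in tumours. Nxf3 was at 4.09 CPM, against 0 to 0.295 CPM in the other normal libraries and 11.9 to 53.6 CPM in tumours. The endothelium sum of this library, 1542 CPM, was the lowest of the normal libraries (2695 to 3144 CPM in the others). Its alveolar sum of 37100 CPM lay within their range (17871 to 45261 CPM). So did its airway sum of 26780 CPM and its macrophage sum of 551 CPM. The part of tumour tissue in this piece was not tested.

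The normal and tumour libraries whose names share a start can be set side by side. For all 49 genes every tumour was above every normal library, so all 49 were necessarily higher in the tumour in all 6 pairs. The summed level was 11.3 to 17.4 times higher in 5 pairs and 2.70 times higher in the pair of normal VEH replicate 2 and tumour HDM replicate 2. Those are also the highest normal and the lowest tumour library. In that pair the differences ran from 0.61 (Spc24) to 2.53 (Ttk) on the log2 scale.

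The interaction asks whether the tumour-normal difference itself differed between HDM and VEH. None of the 49 genes was called, where 0% of all tested genes were. DESeq2 called none of the 49 either, and 222 of the 22190 genes. By edgeR 4 of the 49 had an unadjusted p below 0.05 (2084 of all tested genes). The median was 0.85 on the log2 scale with all libraries, positive for 48 of 49 genes, and 0.03 without normal VEH replicate 2, positive for 26. The 3 genes with the smallest p were Cdc25c at 3.02 ± 1.25 (SE, adjusted p = 0.514), Cdk1 at 1.64 ± 0.71 (adjusted p = 0.525) and Cenpf, a kinetochore and nuclear envelope protein, at 1.76 ± 0.77 (adjusted p = 0.525). Without that library they were 2.23, 0.60 and 0.68. Cenpf was at 2.55, 14.9 and 4.38 CPM in normal VEH tissue, 2.05, 2.72 and 3.02 CPM in normal HDM tissue, 47.9, 46.3 and 66.1 CPM in VEH tumours and 58.1, 43.7 and 92.3 CPM in HDM tumours. The larger tumour-normal median under HDM than under VEH given above was therefore not shown to be a difference between the treatments.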

How the data were processed

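The authors deposited raw counts, 1 row per Ensembl identifier, beside the length of each gene. The submitters' processing notes name Trim Galore, STAR, Subread, featureCounts and the build mm39, and no versions. Libraries were stranded, per the labels' protocols, which name poly(A) selection and ribosomal RNA depletion without choosing between them. The annotation and strand setting of the counting are not given in the sources used here. All 12 libraries have 1 batch label. Symbols, starts and overlaps came from GENCODE M39 on GRCm39, which holds 78168 of the 78298 identifiers, with the deposited length equal for 62058.

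Groups came from the labels. The count test was that of edgeR 4.0.16 (R 4.3.3): filterByExpr (minimum count 10), TMM, 1 fit of all 12 libraries with a coefficient per group, robust quasi-likelihood F-tests, two-sided, and Benjamini-Hochberg adjustment over 22190 genes. Each SE was obtained by dividing the size of the log2 fold change by the root of F. The scripts were tested on simulated counts. Alternatives were DESeq2 size factors, library size only, no filter, at least 10 counts in every library, DESeq2 1.42.0, fits of the compared groups only, blocks for replicate number and for name code, removal of the 4 libraries with conflicting name codes, and leaving out each library. Replicates differed by more than counting noise. Same-numbered libraries did not deviate together (r from -0.355 to 0.303 between pairs). The labels do not say that a name code marks a mouse, 2 codes join different treatments, and libraries of 1 code did not deviate together (r from -0.219 to 0.179). No pairing entered the tests.

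Values in every library are given for the member of each role with the highest length-scaled tumour level, the 3 largest and 3 smallest tumour-normal changes, and the 3 smallest p of each other comparison. Of the other lists, the 2 largest changes and all genes called lower are named. One gene that this rule names is not reported here. Members and lists were chosen with earlier results of these data known.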

Additional observations from a re-analysis of the deposited data

How the results depend on the processing

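The count of mitotic genes called higher in tumours was 46 to 49 under VEH and 49 under HDM when 1 library at a time was left out, and 47 to 49 in both under the other alternatives; the lowest, 46, was without normal VEH replicate 1. Asking for 10 counts or more in each library left Cdc25c and Ttk untested. Over all alternatives, 2872 to 4797 of all tested genes were called higher under VEH and 3743 to 6161 under HDM. Between HDM and VEH, and for the interaction, 0 of the 49 genes were called under each alternative run. Many of these runs called none of all tested genes either, so the 0 says little about the 49. The most called were 1311 (tumours), 43 (normal tissue) and 222 (interaction) of 22190 genes, by DESeq2's Wald test. The median tumour-normal log2 fold change under VEH ranged from 2.63 to 4.05 over the libraries left out and was 3.94 without the 4 libraries of conflicting name codes. Under HDM it ranged from 3.75 to 4.40 over all alternatives. Over the libraries left out, the HDM minus VEH median ranged from -0.27 to 0.15 in tumours and from -1.21 to -0.04 in normal tissue, and the median interaction from 0.03 to 1.17. Without those 4 libraries the HDM minus VEH median was 0.27 in tumours (43 of 49 genes above 0) and -0.10 in normal tissue. Ccnb2 was no longer called under VEH in a fit of the compared groups alone (2.40, adjusted p = 0.055) and without normal VEH replicate 1 (2.07, adjusted p = 0.0536). No called value changed sign. Scaling by library size alone moved the median of all genes from -0.11 to 0.03 under VEH and from -0.08 to 0.10 under HDM, and all 49 genes were still called higher in both.

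With a block for replicate number, 48 genes were called under VEH and 49 under HDM, and 5 of the 12 libraries correlated best with their own number. With a block for the name code, 49 were called in both. The HDM minus VEH median in tumours was then -1.02 (46 of 49 genes below 0, and 7 with an unadjusted p below 0.05), with 0 of all tested genes called. That fit can compare HDM with VEH tumours only by way of the name codes that join different treatments. These include the code of normal VEH replicate 2. The cause of the shift was not tested. The number of libraries, 3 a group, limits how small a difference can be called.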
